A study of Mus musculus with 9 samples.

Results

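The regions described here are bidirectionally transcribed regions of mouse embryonic stem cells whose nascent RNA signal was low 15 min after doxycycline and higher both before it and at 30 min. They were chosen from their own levels. A region was taken when its mean count over 9 libraries was at least 20, all 3 libraries at 15 min were below all 3 at 0 min and all 3 at 30 min, the mean at 15 min was at most 0.75 of that at 0 min, and the mean at 30 min was at least 1.4 times that at 15 min. Levels are CPM, each count scaled to a common library total. Of 174289 regions in the deposited table, 32891 had a mean count of at least 20, and 768 of these (2.33%) met the rule. The dip and the return are therefore properties of the choice, and their sizes are given as a description with no test.

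The assay was PRO-seq, a nuclear run-on method in which engaged RNA polymerases add biotin-labelled nucleotides, so that the captured RNA reports polymerases active at that moment. All cells were embryonic stem cells, labelled mESC, grown in serum with LIF and the inhibitors PD0325901 and CHIR99021. In every library the cells were Firre knockout and carried a doxycycline-inducible Firre transgene. The 0 min group received no doxycycline and the other groups received 1 ng/μL for 15 or 30 min, with 3 libraries in each group. No library came from cells given doxycycline without the transgene, so the drug and the induced RNA cannot be told apart, and the labels do not say whether replicates were separate cultures. If they were not, the spread given here is technical.

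Firre is an X-linked long non-coding RNA that stays in the nucleus. Transcription that starts in both directions marks gene promoters and enhancers alike: polymerases initiate on opposite strands from a shared open site, most of them pause or stop early, and at promoters the sense polymerase goes on through the gene. Because a run-on counts polymerases and not stable RNA, its signal can fall and return within minutes. Each deposited region is such a site, counted in a window of 600 bp, and a window near a gene start or inside a gene also collects polymerases that pass along the gene.

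The libraries held 3813365 to 5980366 reads in regions, so 3 counts correspond to between 0.502 and 0.787 CPM. The 8 regions at or inside Firre, summed, were at 2.54, 4.97 and 2.62 CPM in libraries 1 to 3 at 0 min, at 275, 337 and 266 CPM at 15 min, and at 804, 772 and 776 CPM at 30 min. Of 12 embryonic stem cell markers 10 had a region at a gene end, Esrrb and Pou5f1 being the exceptions, and the sum of the 10 was 2158 to 2335 CPM in every library. Sums for fibroblast, primitive endoderm and trophectoderm markers were between 2.84 and 12.1 CPM. They rest on the 3 of 8, 3 of 6 and 4 of 6 genes that had a region. For primed and early lineage markers, of which 3 of 6 had a region, the sum was 9.44 to 15.1 CPM. Library 3 at 15 min stood apart from the other 8 on the second principal component (50.5 against -30.4 to 13.5, 14.2% of the variance), and results that rest on it are given without it below.

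Of the 768 regions, 130 were centred within 250 bp of a start site listed by RefSeq. The promoters of the 5 such genes with the deepest dip are shown so that the letters can be read beside the levels that follow. Each runs from 250 bases before the start site to 50 after it (300 bases, GRCm38.p6, 5′ to 3′ on the gene's strand). Capitals mark matches, on either strand, to the GC box GGGCGG, the CCAAT box CCAAT, the ETS core CCGGAA, the E-box CACGTG, the cyclic AMP element TGACGTCA, the TATA box TATAAA, the YY1 core ATGGCGG and the NRF1 consensus, which is palindromic. Overlapping matches were each counted. The windows are chr6:54594861-54595160 (plus strand, Plekha8), chr12:79190912-79191211 (minus strand, Rdh11), chr4:152477892-152478191 (plus strand, Nphp4), chr4:140986671-140986970 (plus strand, Atp13a2) and chr11:119040864-119041163 (minus strand, Cbx8).
Plekha8: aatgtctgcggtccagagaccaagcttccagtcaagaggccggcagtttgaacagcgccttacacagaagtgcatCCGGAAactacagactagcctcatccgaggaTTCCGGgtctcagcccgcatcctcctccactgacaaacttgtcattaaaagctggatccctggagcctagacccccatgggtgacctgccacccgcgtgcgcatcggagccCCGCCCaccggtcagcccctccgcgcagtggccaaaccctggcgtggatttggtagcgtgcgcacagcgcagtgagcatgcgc
Rdh11: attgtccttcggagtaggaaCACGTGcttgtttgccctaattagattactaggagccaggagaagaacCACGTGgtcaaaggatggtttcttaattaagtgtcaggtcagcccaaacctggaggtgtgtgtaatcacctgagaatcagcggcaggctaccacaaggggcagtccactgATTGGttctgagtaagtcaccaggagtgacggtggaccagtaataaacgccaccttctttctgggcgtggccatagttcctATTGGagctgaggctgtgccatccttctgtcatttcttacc
Nphp4: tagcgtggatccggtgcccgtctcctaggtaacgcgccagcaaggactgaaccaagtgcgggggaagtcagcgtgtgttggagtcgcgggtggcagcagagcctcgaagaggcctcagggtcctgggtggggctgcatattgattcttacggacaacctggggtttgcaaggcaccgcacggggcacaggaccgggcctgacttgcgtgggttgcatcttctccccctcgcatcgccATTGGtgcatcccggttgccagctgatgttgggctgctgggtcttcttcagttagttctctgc
Atp13a2: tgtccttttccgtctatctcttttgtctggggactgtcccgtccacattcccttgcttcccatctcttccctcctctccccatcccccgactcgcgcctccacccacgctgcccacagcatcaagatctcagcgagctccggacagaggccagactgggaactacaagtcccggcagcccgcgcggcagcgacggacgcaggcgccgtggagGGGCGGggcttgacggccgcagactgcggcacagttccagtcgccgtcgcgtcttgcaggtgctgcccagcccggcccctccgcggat
Cbx8: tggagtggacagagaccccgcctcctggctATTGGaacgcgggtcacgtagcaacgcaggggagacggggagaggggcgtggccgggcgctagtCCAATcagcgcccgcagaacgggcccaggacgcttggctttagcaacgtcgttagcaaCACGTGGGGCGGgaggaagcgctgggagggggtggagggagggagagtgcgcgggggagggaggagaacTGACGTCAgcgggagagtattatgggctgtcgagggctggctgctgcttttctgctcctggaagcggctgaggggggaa

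The Plekha8 window holds ETS core and GC box matches, that of Rdh11 CCAAT and E-box matches, and that of Nphp4 a CCAAT box. The Atp13a2 window holds a GC box, and Cbx8 holds CCAAT, E-box, cyclic AMP element and GC box matches. No motif among those searched was found in all 5. Over the 130 promoters, 76.2% held a GC box, against 68.4% of the 6272 promoters with a region of the same count minimum centred there and 35.7% of all 32851 listed promoters. The ETS core was in 19.2%, against 33.3% and 14.9%. The CCAAT box was in 42.3%, against 41.0% and 37.4%, and the E-box was in 9.23%, against 11.4% and 7.15%. The TATA box was in 1.54%, against 6.23% and 13.6%. The cyclic AMP element was in 2.31% (3.67% and 1.79%), the YY1 core in 6.15% (9.34% and 4.05%) and the NRF1 motif in 0.769% (2.60% and 0.971%). Another set, called here regions that stayed low, had all 15 and 30 min libraries below all 0 min libraries and both means at most 0.75 of the 0 min mean, without meeting the rule; its 297 promoters had the ETS core in 17.8% and the GC box in 78.1%. For these motifs the share in the 130 lies nearer to that of the promoters that stayed low than to that of the 6272, a description over sets of unequal size. Median GC content was 62.7% in the 130, 62.0% in the 6272, 65.3% in the 297 and 52.7% in all listed promoters. By GC content the 130 thus lay nearer to the 6272 than to the 297. The median number of CpG was 20, 22, 22 and 7.

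Summed over the 768 regions, the level was 15076, 14254 and 14508 CPM in the 3 libraries at 0 min. It was 8143, 8264 and 8427 CPM at 15 min and 13524, 13161 and 12499 CPM at 30 min. The 15 min libraries lay far below the rest, and in CPM the 30 min libraries all lay below the 0 min libraries. How far the 30 min level fell short depended on the scaling, as given below. As a share of reads this is 1.43% to 1.51%, then 0.814% to 0.843%, then 1.25% to 1.35%.

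**Figure D1:**
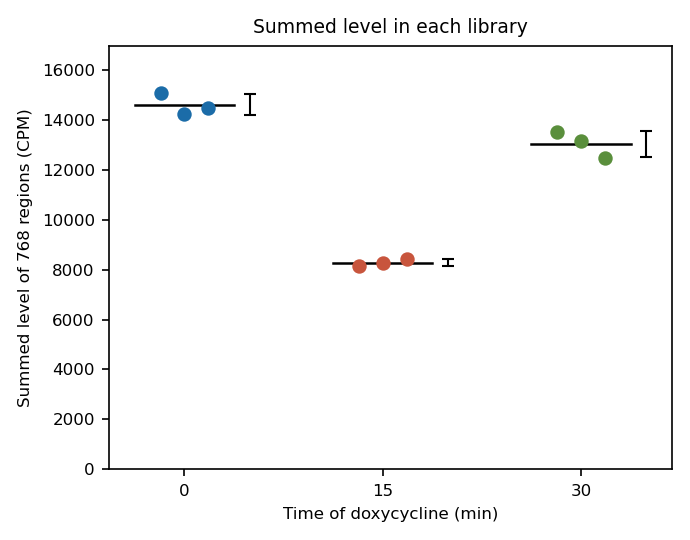
Summed level of the 768 regions (CPM, vertical axis from 0) in each library against the time of doxycycline. Points are libraries, the horizontal line is the mean of 3 and the bar beside it reaches 1 SD either way. The regions were chosen for this pattern. In CPM the 30 min libraries (12499 to 13524) stay below the 0 min libraries (14254 to 15076), a gap that depends on the scaling.

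Region by region, the 15 min mean was a median 0.561 of the 0 min mean (0.248 to 0.7495), and the 30 min mean was a median 1.58 times the 15 min mean (1.401 to 3.84). At 15 min 212 of the 768 were below 0.5 of their 0 min mean. Both the fall and the return were at least 2-fold in 43 regions, of which 12 were at gene ends, 13 inside genes and 18 outside genes. The spread between replicate libraries, as SD in percent of the mean, had a median of 14.5% at 0 min, 15.4% at 15 min and 12.8% at 30 min. Just inside the limit on the fall were regions at the ends of Telo2, Patl1 and 1700055D18Rik (0.748, 0.749 and 0.7495 of the 0 min mean), and just outside it regions of Lamtor3, Kctd18 and Armc7 (0.7501, 0.751 and 0.752). Just inside the limit on the return were regions of Gm34496, Rec8 and Mid1ip1 (1.4006-, 1.4008- and 1.4015-fold) and just outside it those of Srp14, Fcor and Prdm1 (1.3989-, 1.3995- and 1.3999-fold).

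In edgeR's quasi-likelihood fit over 54299 regions, which used all libraries, 468 of the 768 were called lower at 15 min than at 0 min. Over all tested regions 2148 were called lower, or 3.96%. At 30 min against 15 min 88 of the 768 were called higher, where the background was 0.214%. Of these 88, 77 were called in both steps, for which the share over all tested regions can be at most 0.214%. The rule used both contrasts, so nothing is read from these counts. Their size also moved with single libraries: the 88 became 21, 46, 30, 24 and 46 without library 1 or 2 at 15 min or library 1, 2 or 3 at 30 min, 47 with scaling from gene ends alone and 137 with the DESeq2 Wald test. The 468 became 280 without library 1 at 15 min and 290 with scaling from gene ends.

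At gene ends, meaning a centre within 1 kb of an annotated end of a gene, there were 347 of the 768 regions (45.2%). The share was 37.8% without library 2 at 15 min and 55.8% without library 3 at 15 min. Of these 239 were at the end where the gene starts, 56 at its 3′ end and 52 at genes whose strand was not listed. Plekha8, which encodes a glycolipid transfer protein of the Golgi, had the deepest dip at a gene end. Its region (chr6:54594860-54595459, mm10), centred 48 bp downstream of the start site, was at 12.9, 8.36 and 6.56 CPM at 0 min. It was at 3.85, 2.28 and 3.77 CPM at 15 min and at 7.78, 7.23 and 6.78 CPM at 30 min. The 0 and 30 min libraries overlapped.

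Rdh11, a retinol dehydrogenase, had a region over a listed start (chr12:79190652-79191251), centred 904 bp inside the annotated end of the gene. It was at 6.52, 6.55 and 6.29 CPM at 0 min. At 15 min it was at 3.01, 3.23 and 2.59 CPM and at 30 min at 7.22, 6.49 and 4.67 CPM, so the 30 min libraries fell on both sides of the 0 min level. A window of higher level (12.6 CPM at 0 min), centred 14 bp from a listed start at that end, was at 0.624 at 15 min. It did not meet the rule, since its rise to 30 min was 1.24-fold. Ift27, a small GTPase of the intraflagellar transport particle that moves cargo along cilia, had a region (chr15:78173130-78173729) centred 652 bp past its start. It was at 8.88, 10.2 and 7.87 CPM, then 3.68, 4.94 and 3.07 CPM, then 6.85, 8.16 and 9.58 CPM. Its libraries at 0 and 30 min overlapped.

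B3galt1, a galactosyltransferase, and 4933404O12Rik had regions near their starts that fell to 0.481 and 0.477 of the 0 min mean. They returned to 1.00 and 0.976 of it. The overlapping window centred 18 bp from the B3galt1 start, of 8.38 CPM at 0 min, did not return. It fell to 0.656 and was at 0.939 of its 15 min level at 30 min. Rabac1, a Rab acceptor of the Golgi, carried members at both ends: the region at its 3′ end fell to 0.313 and came back to 0.682 of the 0 min mean, and that at its start fell to 0.573. Ddr2, a collagen receptor kinase, and Gm10822 had members at their 3′ ends, at 0.424 and 0.371 of the 0 min mean at 15 min. Of genes with no listed strand, Bace1 (the β-secretase) had a member that returned to 0.987 of the 0 min mean. That of Ap3m2 (an AP-3 adaptor subunit) returned to 0.888. Gm33258 and the serotonin receptor gene Htr5b had members that came back to 0.702 and 0.678. At 15 min other tested Bace1 windows, of 1.19 to 5.00 CPM at 0 min, were at 1.10 to 2.10 of the 0 min mean. Another window at an Ap3m2 end did not return, with 18.4, 14.6 and 11.0 CPM at 0, 15 and 30 min. Inside Ap3m2 a window of 14.3 CPM at 0 min fell to 10.7 and rose to 13.3 CPM. One of 3.61 CPM fell to 2.54 and then to 2.03 CPM.

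Among the other promoters printed above, the Nphp4 region, which also lies at an end of Kcnab2, was at 0.415 of its 0 min mean at 15 min and 0.824 at 30 min. Nphp4 encodes a protein of the ciliary transition zone. That of Atp13a2, a lysosomal polyamine transporter, was at 0.446 and 0.882.

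**Figure D2:**
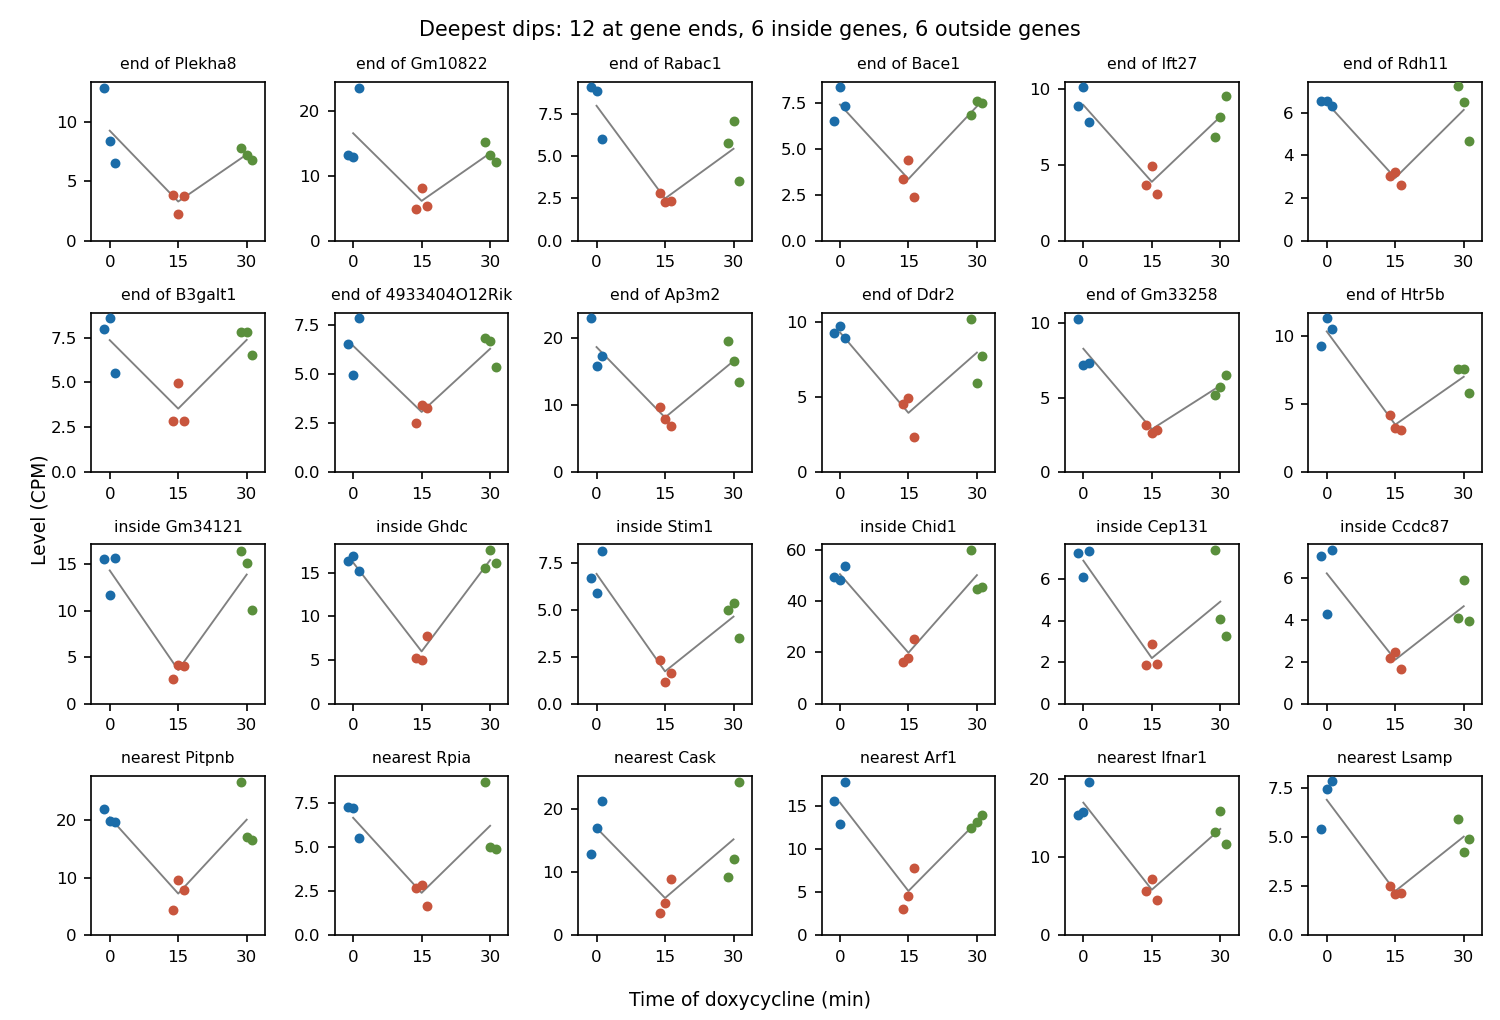
Level (CPM, vertical axes from 0, each panel on its own scale) against time of doxycycline (min) for the 24 regions with the deepest dips. Points are single libraries, lines join the means of 3, and titles give the gene at whose end, inside which or nearest to which the region lies; the deepest is inside Gm34121, at 0.252 of its 0 min mean at 15 min.

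Inside genes, away from their ends, there were 262 regions (34.1%). The region inside Gm34121 (chr7:56044829-56045428), 4.92 kb downstream of its start, had the deepest dip of all. It was at 15.6, 11.7 and 15.7 CPM at 0 min, at 2.68, 4.18 and 4.01 CPM at 15 min and at 16.5, 15.2 and 10.0 CPM at 30 min. On the log2 scale of the fit the fall was -1.97 ± 0.27 (SE) and the return 1.95 ± 0.26, with 30 min against 0 min at -0.02 ± 0.22. The lowest level relative to 0 min was inside Stim1, the calcium sensor of the endoplasmic reticulum, at 6.70, 5.87 and 8.13 CPM and then 2.34, 1.14 and 1.65 CPM. It came back to 5.00, 5.38 and 3.50 CPM, with every 30 min library below every 0 min library.

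Ghdc held a region 1.96 kb past its start (chr11:100768694-100769293) at 16.3, 16.9 and 15.2 CPM at 0 min. It was at 5.18, 4.94 and 7.78 CPM at 15 min and at 15.6, 17.6 and 16.1 CPM at 30 min, a close return. The window over the Ghdc start itself fell to 0.560 and then rose 1.37-fold, just short of the limit. Chid1, which encodes a chitinase-domain protein, was the deep dip with the highest level, at 49.5, 48.3 and 53.8 CPM, then 16.4, 17.9 and 25.2 CPM, then 60.0, 44.9 and 45.6 CPM. Its region lies 3.94 kb past the start, and 2 other Chid1 windows with over 20 CPM moved otherwise: that over the start fell to 0.584 and rose 1.25-fold, and another inside the gene fell to 0.687 and went on to 0.831 of its 15 min level. Cep131, a protein of centriolar satellites, and Ccdc87 fell to 0.318 and 0.337 and came back to 0.713 and 0.747 of their 0 min means.

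Outside genes there were 159 regions (20.7%). The deepest was 5.32 kb from Pitpnb, a phosphatidylinositol transfer protein gene, on the upstream side (chr5:111325077-111325676). It was at 21.9, 19.9 and 19.7 CPM at 0 min, at 4.35, 9.50 and 7.78 CPM at 15 min and at 26.7, 17.1 and 16.6 CPM at 30 min. One library at 30 min was above all at 0 min and the other two were below. Regions nearest to Rpia (ribose-5-phosphate isomerase), Arf1 (a GTPase of Golgi vesicle budding) and Ifnar1 (a subunit of the type I interferon receptor) lay 1.87, 2.06 and 4.73 kb from those genes. They fell to 0.359, 0.332 and 0.342 and came back to 0.932, 0.855 and 0.801 of their 0 min means. Ifnar1 also held a member inside the gene, 5.20 kb past its start, at 0.575 and 0.898. The region nearest to Cask had a wide spread at 30 min, with 9.26, 12.05 and 24.3 CPM, and that nearest to Lsamp fell to 0.324.

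Among the regions of highest level was one at the 3′ end of Gadd45b, a stress-induced gene of growth arrest, centred 1.64 kb past the start of this short gene (chr10:80931434-80932033). It was at 252, 214 and 213 CPM at 0 min, at 89.8, 92.4 and 109 CPM at 15 min and at 128, 156 and 126 CPM at 30 min. It thus regained only part of its level. Its neighbour at the Gadd45b start fell from 124 to 72.2 CPM and was at 95.5 CPM at 30 min, a 1.32-fold rise. Lin37, a subunit of the DREAM complex, had a region at its 3′ end at 160, 191 and 191 CPM, then 105, 125 and 111 CPM, then 174, 171 and 139 CPM. Kdm6b, an H3K27 demethylase, held a region that fell to 0.490 and came back to 0.706 of its 0 min mean. Those inside Zfp397 and Tprn returned to 0.967 and 1.02, and that at the start of Amt, of the glycine cleavage system, to 0.837.

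At 30 min the 768 regions were at a median 0.899 of their 0 min mean (0.452 to 1.62). How far they fell short depended on the scaling. Their median log2 change against 0 min was -0.135 in the fit and -0.028 with scaling from gene ends. Over all tested regions it was -0.001 and 0.108. Regions at gene ends stood at a median 0.854, those inside genes at 0.947 and those outside genes at 0.924. Among all regions with the same count minimum these medians were 0.918, 0.994 and 1.05, so there too gene ends were lowest. Put as the part of the lost signal that had come back, the medians were 67.8%, 86.3% and 83.5%. In 205 regions (26.7%) the 30 min mean was at or above the 0 min mean. In 617 the 0 and 30 min libraries overlapped, in 136 (17.7%) all 30 min libraries were below all 0 min libraries and in 15 (1.95%) they were all above. Among all regions with the same count minimum these last shares were 11.7% and 11.3%. Since the rule asked for high 0 min libraries, that contrast is no independent test either.

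**Figure D3:**
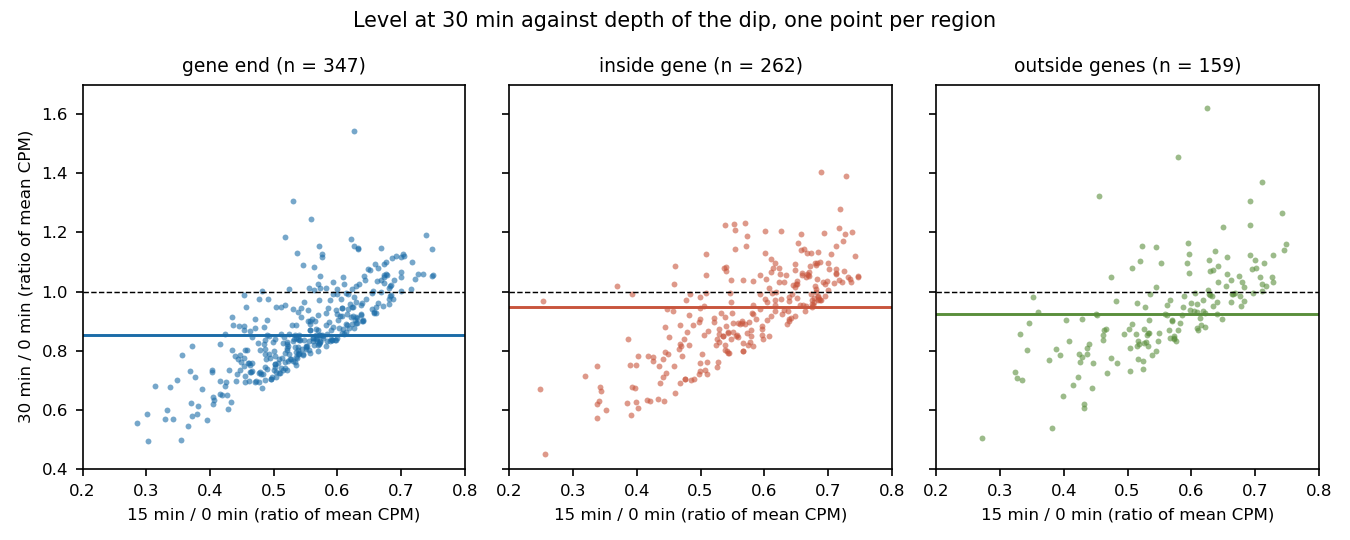
Ratio of the 30 min to the 0 min mean CPM against the ratio of the 15 min to the 0 min mean, one point per region, for 347 regions at gene ends, 262 inside genes and 159 outside genes. The dashed line marks equality with 0 min and the solid line the median, which is 0.854, 0.947 and 0.924 in the 3 panels; the slanted lower edge of the points is the limit of 1.4 that the rule set, so the slope is not a result.

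At 30 min against 0 min the edgeR fit called 8 of the 768 lower (1.04%) and 0 higher, where 0.497% of all tested regions were called lower and 1.24% higher. At an unadjusted p under 0.05 in the edgeR fit the count, in either direction, was 96 of the 768 and 8248 of all 54299 tested regions. The DESeq2 Wald test called 8 of the 768 lower. The 8 lay at Unc13a, Sipa1l3, Metrn, Gm52814 and Gadd45b ends, inside Sult2b1 and Hmg20b, and outside genes nearest to Wscd2; all are named because they are few. Unc13a, a synaptic vesicle priming gene, was at 41.9, 23.0 and 26.7 CPM at 0 min over its start. It was at 9.36, 10.8 and 7.55 CPM at 15 min and at 16.5, 15.8 and 13.1 CPM at 30 min, or -1.0025 ± 0.21 (log2, SE) against 0 min. The Gadd45b region was at -0.71 ± 0.12. The count of 8 was 1, 4 and 4 without library 3, 2 or 1 at 30 min, 2 and 3 without library 1 or 3 at 0 min, 13 without library 3 at 15 min and 4 with scaling from gene ends.

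By place in the genome, the share of regions that met the rule was lowest far from start sites. Of regions over 10 kb from the nearest start site listed by RefSeq, 1.16% upstream and 1.35% downstream were members. The share was 5.63% (77 of 1367) at 2 to 5 kb upstream, 2.65% (253 of 9545) within 1 kb and 6.51% (97 of 1489) at 2 to 5 kb downstream. Genes with no listed start, such as Kdm6b, count here by the next listed one. With the rule turned around, so that regions peaked at 15 min and returned by the inverse of the same limits (645 regions), the shares were 0.356% within 1 kb and 3.21% at over 10 kb downstream. All regions of the count minimum also shifted with distance. The median ratio of their 15 min to 0 min means was 0.874 within 1 kb of a start site. It was 0.949 at 2 to 5 kb upstream and 0.903 at 2 to 5 kb downstream. Beyond 10 kb it was 1.069 upstream and 1.066 downstream. The limits were the same at all distances, and whether the shares differ beyond this general shift was not tested.

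The dip of these shares over the start itself rested on 1 library. Grouped more broadly, 5.77% of regions at 1 to 5 kb on either side, 2.65% within 1 kb and 1.26% beyond 10 kb were members. Without library 3 at 15 min 1729 regions met the rule, 678 of them among the 768, and the shares became 8.26%, 8.77% and 2.48%. The share within 1 kb was 2.62% to 4.01% when any other library was left out, and the share beyond 10 kb remained the lowest of the 3 under each alternative of the rule that was run.

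**Figure D4:**
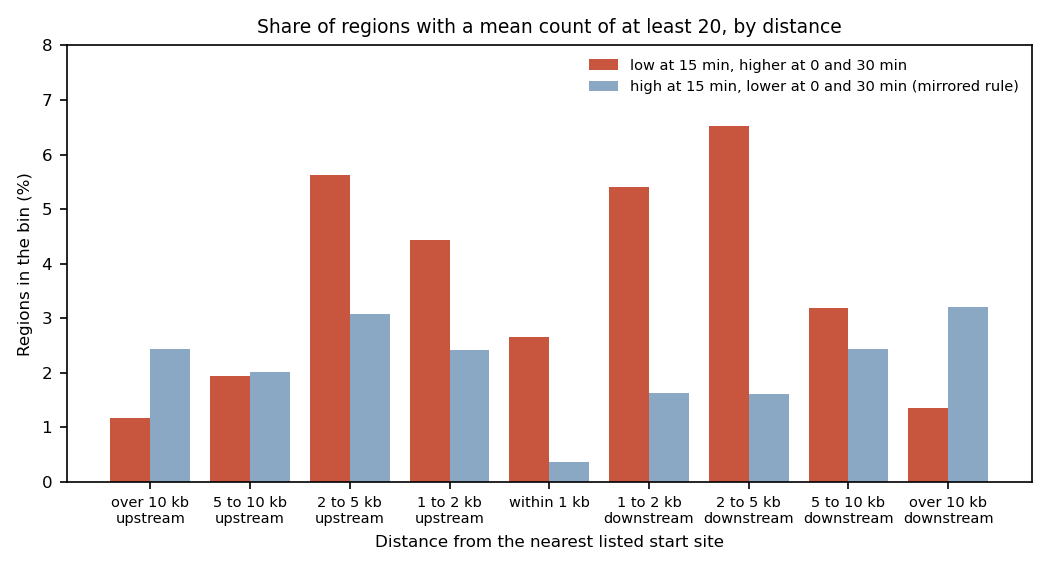
Percent of regions with a mean count of at least 20 that met the rule (red) or the mirrored rule (blue), by distance and side from the nearest listed start site. Members make up 6.51% at 2 to 5 kb downstream and 1.16% beyond 10 kb upstream, whereas mirrored regions are fewest within 1 kb (0.356%); without library 3 at 15 min the share of members within 1 kb is 8.77%.

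Compared with all 32891 regions of the count minimum, members lay somewhat more often at gene ends (45.2% against 35.9%) and less often outside genes (20.7% against 31.0%). Regions that stayed low had 50.3% and 13.7%, and the mirrored regions 13.6% and 55.3%. Over all 32891 regions the median ratio of 15 min to 0 min means was 0.882 at gene ends and 1.10 outside genes. Whether the places of members differ beyond that general shift was not tested. The 3′ ends made up 7.29% of members, 3.30% of all regions, 5.81% of those that stayed low and 4.96% of the mirrored ones. The deposited regions that gave the windows had a median width of 745 bp in members and 742 bp in all, and the median mean count was 55.3 and 62.3. The mirrored regions were wider, with a median of 1418 bp.

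Members lay on all chromosomes in the table. The share of regions that met the rule was 3.72% on chromosome 7 (80 of 2152), 3.53% on chromosome 15 and 3.10% on chromosome 19, and 1.10% on chromosome X (12 of 1086), 1.02% on chromosome 18 and 1.21% on chromosome 14. Few were close together: 8 lay within 600 bp of another member, 89 within 10 kb and 216 within 100 kb. Of 501 windows of 1 Mb with a member, 61 had at least 3. The most, 7 of 76 regions, were in chr2:30000001-31000000, at or near Kyat1, Sh3glb2, Miga2, Gm14486, LOC115489511 and Usp20. In 123 members the window overlapped another window, so that some reads were counted in both.

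Other regions of the same genes were also measured. The 609 members in or at genes belonged to 582 genes, of which 464 had in all 1373 further tested regions that were not members. Their median log2 change at 15 min against 0 min was -0.20, where it was 0.02 over all tested regions. At gene starts it was -0.39 against -0.18 over all starts, inside genes -0.11 against 0.03, and at 3′ ends -0.17 against -0.07. At 30 min against 15 min their median was 0.09. Since regions that met the rule were taken out of the 1373, that they moved less than the members is set by the choice. At 15 min 105 (7.65%) were called lower and 27 (1.97%) higher, where 3.96% and 4.29% of all were. With scaling from gene ends the median of -0.20 became -0.04 and that of all regions became 0.19. These regions come from the same libraries as the members, and 1102 of them, those whose windows overlap no other, had a median of -0.18.

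Members came in pairs in 27 genes, and none had more than 2. Acacb, the mitochondrial acetyl-CoA carboxylase, held a pair 12.9 and 25.9 kb past its listed start, at 0.596 and 0.731 of the 0 min mean at 15 min, while 3 other tested Acacb windows were at 0.770, 0.591 and 0.669 and rose 1.34-, 1.26- and 1.16-fold. Actr1a, a dynactin subunit, had a pair in overlapping windows at its start, at 0.491 and 0.559. Cep131 had one over the start, at 0.562, beside the deep one inside. Adgrl2, an adhesion receptor, had a pair at 0.433 and 0.673, and Cerkl one inside and one at the start, at 0.529 and 0.567.

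Genes of known pathways had members at about the rate of all genes' regions. Over 26 lists of genes for signalling, stress, pluripotency, chromatin and metabolism, 350 genes had a region of the count minimum and 13 had a member. That is 14 of 604 regions, or 2.32%, where 2.68% of all regions in or at genes were members. In 16 lists no gene had one, among them LIF-STAT3 targets, heat shock, WNT and NOTCH pathways, hypoxia and glycolysis, and cytosolic ribosomal proteins.

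Of 17 measured immediate early genes, Fosb and Nr4a1 had a member. Fosb, an AP-1 subunit, was at 16.9, 18.5 and 16.5 CPM in a window 1.52 kb past its start, then at 7.02, 4.37 and 9.44 CPM, then at 14.8, 12.05 and 13.8 CPM. All 30 min libraries were below those of 0 min. Nr4a1, an orphan nuclear receptor, fell to 0.530 and came back to 0.766 of the 0 min mean. Spry1, a feedback inhibitor of FGF-ERK signalling, fell to 0.605 in a window 3.08 kb past its start and returned to 0.964. The window over the Spry1 start fell to 0.568 and rose 1.31-fold.

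The region at the start of Tpm1, a tropomyosin gene, rose past its 0 min level. It was at 7.43, 7.68 and 6.82 CPM at 0 min, at 5.02, 4.94 and 3.77 CPM at 15 min and at 12.04, 12.4 and 9.35 CPM at 30 min, where every library exceeded those at 0 min. Lmna, which encodes lamins A and C, had a member of low level at 0.676, while 2 other Lmna windows of 36.5 and 40.5 CPM at 0 min fell to 0.385 and 0.594 and rose 1.34- and 1.37-fold. Among 17 pluripotency genes measured Lin28a alone had a member, at its start, of 6.16 CPM at 0 min, with 0.686 at 15 min and 1.11 at 30 min. A window inside Lin28a, of 25.8 CPM at 0 min, fell to 0.558 and rose 1.34-fold, short of the limit.

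Of the Polycomb genes, Cbx8 and Pcgf2, which encode subunits of repressive complex PRC1, had members. Cbx8 was at 13.8, 5.42 and 10.8 CPM at 0 min, at 3.68, 2.28 and 3.07 CPM at 15 min and at 7.04, 6.30 and 4.21 CPM at 30 min. The 0 min libraries were far apart, and the 30 min libraries overlapped them. Pcgf2 had a member at its start, 675 bp from that of Psmb3, at 0.521 and 0.830. Dhcr7, the last enzyme of cholesterol synthesis, had a pair at 0.474 and 0.505 that came back to 0.839 and 0.854. Phgdh, the first enzyme of serine synthesis, had a member of 6.91 CPM at 0 min that fell to 0.405 and came back to 0.619. Windows beside it at the Phgdh start, of 6.09 and 2.05 CPM at 0 min, were at 0.787 and 1.13 at 15 min. At 30 min these windows were at 0.830 and 1.07 of their 15 min level. Inside Nelfa, a subunit of the pausing factor NELF, a window of 7.53 CPM at 0 min fell to 0.673 and stood at 1.13. The window over the Nelfa start, of 61.1 CPM at 0 min, was at 1.05 of that level at 15 min. Windows inside Nelfa of 24.2 and 23.8 CPM at 0 min were at 0.956 and 1.06.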

How the data were processed

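PRO-seq was used on 9 libraries of mouse embryonic stem cells. The table deposited by the authors holds raw read counts per bidirectional region, and the deposited region lists hold other values, the positions of the regions on mm10. Per the submitters' processing notes HISAT2, featureCounts and DESeq2 1.26.0 were used; their settings, the caller's settings and the strand counted are not given in the sources used here. Nuclei held 1% Drosophila S2 nuclei per the labels, whose counts were not used here, so levels are relative to the library total, the reads in all regions.

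The members, lists and rules were chosen with earlier results of these data known. CPM was computed from library totals. Regions passing edgeR's expression filter (54299 tested, 119990 removed) were scaled by TMM (0.971 to 1.02) and fitted with edgeR 4.0.16 in R 4.3.3, with all 9 libraries and time as a factor. Benjamini-Hochberg adjustment ran over the whole set of tested regions, with calls at 0.05. A log2 change divided by the square root of F gave its SE. DESeq2 1.42.0, other scalings, filters, windows and omitted libraries were alternatives. The fit was checked on simulated data. Genes, start sites and promoters came from RefSeq for GRCm38.p6, the assembly of mm10 (34610 genes used, 32851 promoters of 27025 genes, none on chromosome 18). An ETS or other match is a match of letters.

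Regions named were, by a rule on values: the 12 at gene ends, 6 inside and 6 outside genes with the deepest dip (the smaller of fall and return), the 6 of highest CPM, those of listed genes, 5 genes with several members, and those nearest each limit. Other windows of those genes, the printed promoters of Nphp4 and Atp13a2, and the 8 regions called at 30 min were named besides. One region of a listed gene is not reported here.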

Additional observations from a re-analysis of the deposited data

How the results depend on the processing

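The number of regions meeting the rule was 415 with scaling from gene ends, 430 with a mean count of at least 50, 473 with limits of 0.67 and 1.5, and 799 to 1729 when one library was left out, the last without library 3 at 15 min. The share at gene ends was 30.6% with a limit of 500 bp and 40.8% over windows without overlap, and 37.8% to 55.8% without one library. The 35.9% given for all regions holds for 1 kb and all windows, so it is no comparison for 30.6% or 40.8%. Over all tested regions, 2148 were lower at 15 min, 967 with scaling from gene ends and 896 to 3480 without one library. The 116 higher at 30 min against 15 min became 60 with scaling from gene ends, 188 with the DESeq2 Wald test and 31 to 247 without one library. The 945 called at 30 min against 0 min became 171 to 1510 without one library. The median of neighbouring regions was -0.039 with scaling from gene ends and -0.22 to -0.19 without one library. Whether replicate numbers pair the libraries was not tested. Correlations of deviations were -0.09 to 0.308 for same-numbered libraries and -0.328 to 0.192 for differently numbered ones. Between 0 and 15 min the same-numbered values were 0.083, 0.308 and 0.148. With a replicate block 2374 regions were lower at 15 min, 133 higher at 30 min against 15 min and 1107 called at 30 min against 0 min. The causes of these shifts were not tested. Levels near 4 CPM rest on about 20 counts a library.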

Other observations

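Genes of intraflagellar transport and the BBSome, the complexes that move cargo in cilia, were listed after 1 of them had been seen among the deepest dips, so their counts are a description only. Of 36 such genes 29 had a region of the count minimum, and 6 of their 49 regions (12.2%) were members, where 2.68% of all regions in or at genes were. The 6 genes were Ift27, Ift172, Wdr19, Bbs9, Hspb11 and Ttc30a1. Their 15 min levels were 0.434, 0.655, 0.546, 0.599, 0.601 and 0.555 of the 0 min mean, and their 30 min levels 0.914, 0.940, 1.09, 1.01, 0.974 and 0.849. Over 22 of these genes tested at a start, 1 was called lower at 15 min in the edgeR fit, where 763 of all 8550 genes tested at a start were, and the median log2 change was -0.21, where that over all starts was -0.18.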
